A study of Homo sapiens with 12 samples.

Results

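The genes described here are RFX2 and 5 genes of the cilium, DNAH5, CPLANE1, IFT74, SPEF2 and DNAI1: 6 of the 61498 entries counted in HaCaT, a human keratinocyte line. They were chosen by name, as genes of ciliary motors, transport and assembly that lie where gene names and reads match. The line was studied as 4 derivatives, 1 with a control hairpin (shControl, whose genotype field reads WT) and 1 each with a short hairpin RNA against MLL1 (gene KMT2A, a methyltransferase of histone H3 lysine 4), UTX (gene KDM6A, a demethylase of histone H3 lysine 27) or NRF2 (gene NFE2L2, a transcription factor of antioxidant genes). Each derivative was sequenced untreated, after 100 µM hydrogen peroxide (H2O2) and after 25 µg/mL cerium dioxide nanoparticles (CeO2), both for 24 h. Each of the 12 combinations of derivative and treatment gave a single library. The labels name no second hairpin, clone or culture of any derivative, so an effect of the targeted gene and a peculiarity of that derivative cannot be told apart. P-values then measure the spread of these libraries around an additive model.

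A cilium is a microtubule rod, the axoneme, that grows from a centriole, and intraflagellar transport carries building material along it. Motile cilia add outer dynein arms, which drive the beat, and a central apparatus, which coordinates it, whereas a primary cilium, the kind keratinocytes can form, carries neither. RFX transcription factors bind a promoter element called the X-box and switch on genes of both kinds of cilium, with RFX2 best known from multiciliated cells and the testis.

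Names could be read only in 5 chromosome stretches (on chromosomes 5, 9, 11, 18 and 19), where all 43 genes of a housekeeping panel held at least 30 counts per 1000000 counts (CPM). Outside them 149 of 756 panel genes did, and why names fail there was not tested. The stretches were found from which panel genes reach this same level, so these counts follow from the rule and are no separate check. Of other coding genes, which the rule did not use, 66.3% of 487 inside and 32.8% of 18554 outside averaged at least 1 CPM. All 6 members lie inside: RFX2 is at chr19:5993164-6199572 on the minus strand, DNAH5 at chr5:13690331-13944543 (minus), CPLANE1 at chr5:37106228-37249428 (minus), SPEF2 at chr5:35617844-35814611 (plus), IFT74 at chr9:26947039-27062930 (plus) and DNAI1 at chr9:34457414-34520989 (plus), on GRCh38. The panel genes flanking them ranged from 112 CPM (DCTN3, beside DNAI1) to 3567 CPM (RPS6, beside IFT74). DNAH5, SPEF2 and CPLANE1 share 1 flanking pair, CCT5 and NUP155, with no panel gene between. Their stretch, chr5:218241-44820428, held 8 panel genes, so a match of names at these members is inferred from panel genes that can lie far away. Total counts per library ran from 5388335 to 7670446. The 3 targeted genes lie outside these stretches, so their entries check the labels only as listed. The KMT2A entry held 32.8 to 96.4 CPM in shMLL1 and 299 to 563 CPM in the other derivatives, the KDM6A entry 0 to 1 counts in shUTX and 4 to 6 elsewhere, and the NFE2L2 entry 0 counts in shNRF2 and 1 to 16 elsewhere. Of 14 keratinocyte markers only AQP3 (271 CPM) and TINCR (32.4 CPM) lie inside, with a summed level of 208 to 480 CPM. The others are outside and were not read by name: 3 (KRT5, KRT6A and DSG3) are listed at 0. The rest are listed at means of 0.159 (LAMB3) to 3203 CPM (DSP). All fibroblast and melanocyte markers listed are outside too, so the cell type could be checked by AQP3 and TINCR alone.

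Promoter windows from RefSeq (GRCh38.p14; 250 bases before to 50 bases after a start site) were found for 5 members, in 7 windows. They are shown because these 4 genes were lower in at least 1 knockdown and RFX proteins read such windows. Each runs 5′ to 3′ on the gene's strand, and capitals mark the X-box half-site GTTGCC, searched on both strands. The DNAH5 window is chr5:13944639-13944938, that of CPLANE1 chr5:37249327-37249626, that of SPEF2 chr5:35617613-35617912, and the one of IFT74 chr9:26956162-26956461, the last of its 3 windows.
DNAH5: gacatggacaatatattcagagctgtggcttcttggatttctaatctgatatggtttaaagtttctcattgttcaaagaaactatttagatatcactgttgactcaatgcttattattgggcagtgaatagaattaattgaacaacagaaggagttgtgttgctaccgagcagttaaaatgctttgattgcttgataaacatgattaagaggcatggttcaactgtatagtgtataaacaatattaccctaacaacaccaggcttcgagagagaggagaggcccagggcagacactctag
CPLANE1: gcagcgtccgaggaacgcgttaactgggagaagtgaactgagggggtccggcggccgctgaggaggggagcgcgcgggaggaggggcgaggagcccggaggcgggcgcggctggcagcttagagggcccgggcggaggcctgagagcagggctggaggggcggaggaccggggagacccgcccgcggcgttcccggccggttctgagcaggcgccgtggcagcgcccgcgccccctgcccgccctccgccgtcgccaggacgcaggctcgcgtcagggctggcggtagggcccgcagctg
SPEF2: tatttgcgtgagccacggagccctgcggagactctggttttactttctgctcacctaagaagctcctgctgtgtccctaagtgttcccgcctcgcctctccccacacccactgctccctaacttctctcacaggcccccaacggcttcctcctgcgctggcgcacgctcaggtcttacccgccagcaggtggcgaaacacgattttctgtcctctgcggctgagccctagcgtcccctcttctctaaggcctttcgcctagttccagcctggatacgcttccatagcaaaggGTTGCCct
IFT74: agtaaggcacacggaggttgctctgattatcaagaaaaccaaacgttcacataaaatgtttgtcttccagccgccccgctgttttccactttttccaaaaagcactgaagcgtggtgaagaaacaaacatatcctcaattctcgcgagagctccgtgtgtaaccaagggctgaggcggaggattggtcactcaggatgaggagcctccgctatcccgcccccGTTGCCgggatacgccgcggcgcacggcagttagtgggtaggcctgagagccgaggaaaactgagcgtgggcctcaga
The DNAH5 window is poor in G and C, with 37.7% GC and 2 CpG dinucleotides, and that of CPLANE1 is rich, with 77.3% GC and 39 CpG. The median over 35116 windows was 58.7% GC and 14 CpG. The half-site starts 43 bases after the SPEF2 start site and 28 bases before that IFT74 start site. On the other strand it starts 237 bases before the first IFT74 start site (window chr9:26946860-26947159) and 234 bases before that of DNAI1 (window chr9:34458555-34458854). It was absent from the DNAH5 and CPLANE1 windows and from the second IFT74 window (chr9:26947050-26947349), so that 4 of the 7 windows held it. Of all windows, 12.2% held it on either strand. A pair of half-sites facing each other (GTTNCC then GGNAAC, 1 to 3 bases apart) was in 0.718% of all windows and in none of the 7. A match is only a run of letters, and no binding was measured here.

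Per kilobase of exon, the mean level over the 12 libraries was highest for IFT74, a subunit of the transport complex B, at 18.9 CPM per kb. RFX2 followed at 8.47, CPLANE1, a protein needed to assemble cilia, at 3.07 and DNAH5, a heavy chain of the outer dynein arm, at 1.72 CPM per kb. SPEF2, of the central apparatus, reached 0.144 CPM per kb. IFT74 was above RFX2 in each of the 12 libraries on this scale. Whether every exon inside the stretches was counted under its own gene was not tested, and levels per kilobase carry that limit. CPLANE1 and DNAH5 overlapped: untreated shControl held 2.34 and 2.36 CPM per kb. DNAI1, an intermediate chain of the outer dynein arm, had 4 counts in all, 2 in H2O2-exposed shControl and 1 each in H2O2-exposed shMLL1 and untreated shNRF2. The 9 libraries at 0 allow 0.391 to 0.557 CPM (3 counts of a total, counting error only). DNAI1 was not tested, and the 5 others passed the filter of 1 CPM in 3 libraries, SPEF2 with 9 libraries at that level and the rest with 12. So of the outer arm's 2 chains listed, the heavy chain was counted 2306 times and the intermediate chain 4 times.

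**Figure D1:**
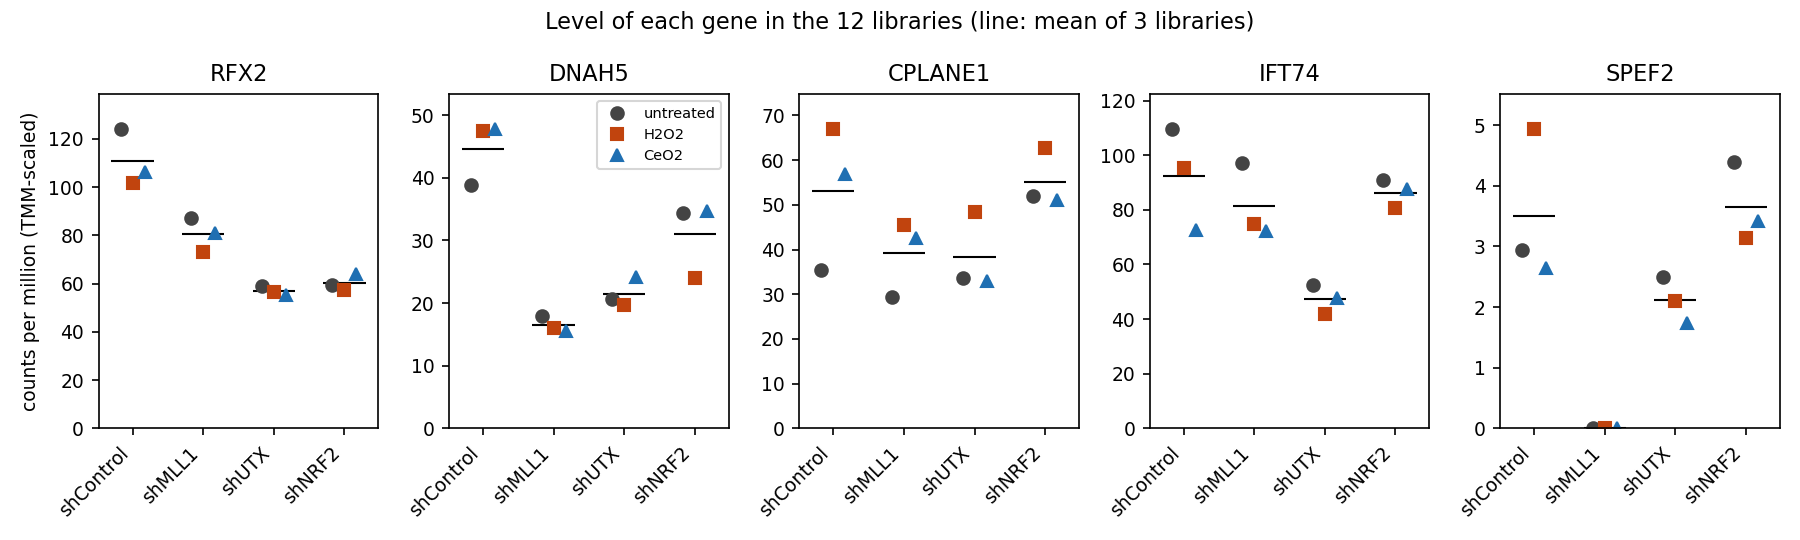
TMM-scaled CPM (y axis, from 0) of the 5 members tested, by derivative (x axis), with 1 point per library (shape and colour give the treatment) and a line at the mean of the 3 libraries. RFX2 is highest in the 3 shControl libraries (102 to 124 CPM), and SPEF2 is at 0 in the 3 shMLL1 libraries.

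RFX2, the transcription factor, was lower in all 3 knockdowns. In shControl it stood at 124 CPM untreated, 102 CPM after H2O2 and 106 CPM after CeO2. In shMLL1 it stood at 87.0, 73.2 and 81.0 CPM, in shUTX at 59.1, 56.5 and 55.3 CPM, and in shNRF2 at 59.4, 57.2 and 63.8 CPM, in the same order. No library of a knockdown reached the lowest shControl library, and shMLL1 lay between shControl and the other knockdowns without overlap. The means were 110.6 ± 11.7 CPM in shControl, 80.4 ± 6.90 in shMLL1, 57.0 ± 1.94 in shUTX and 60.1 ± 3.37 in shNRF2 (SD, n = 3 libraries of different treatment). Within 1 treatment shControl exceeded shUTX by 2.10-fold untreated, 1.80-fold with H2O2 and 1.92-fold with CeO2. RFX2 fell by 0.46 ± 0.09 (log2, SE) in shMLL1 (edgeR, adjusted p = 0.00372), by 0.95 ± 0.09 in shUTX (adjusted p = 5.74e-06) and by 0.87 ± 0.09 in shNRF2 (adjusted p = 4.36e-05). These 3 comparisons share the shControl libraries. The shMLL1 value became −0.20 (adjusted p = 0.182) when a trend with transcript length, described further on, was removed. RFX2 was also lower in shUTX than in shMLL1 (−0.49 ± 0.09, adjusted p = 0.00193) and in shNRF2 than in shMLL1 (−0.42 ± 0.09, adjusted p = 0.0094). The last call was lost without untreated shMLL1 (adjusted p = 0.0673), CeO2-exposed shMLL1 (0.0627) or untreated shNRF2 (0.0691). Between shNRF2 and shUTX the difference was 0.08 ± 0.10 (adjusted p = 0.599). The exons of RFX2 share 187 bases with a pseudogene on the same strand listed at 0 and 109 bases with ACSBG2 on the other strand (0.471 CPM).

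DNAH5 followed another order among the knockdowns. Its levels were 38.8, 47.4 and 47.7 CPM in shControl (untreated, H2O2, CeO2), 17.9, 16.0 and 15.6 CPM in shMLL1, 20.7, 19.7 and 24.1 CPM in shUTX, and 34.4, 24.0 and 34.6 CPM in shNRF2. The shMLL1 libraries were lowest at every treatment and the shControl libraries highest, with the H2O2-exposed shNRF2 library down among those of shUTX. Within 1 treatment shControl exceeded shMLL1 by 2.17-fold untreated, 2.96-fold with H2O2 and 3.07-fold with CeO2. DNAH5 fell by 1.44 ± 0.15 (log2) in shMLL1 (edgeR, adjusted p = 1.89e-05), 2.71-fold, and by 1.06 ± 0.15 in shUTX (adjusted p = 0.000122), 2.09-fold. It fell by 0.53 ± 0.14 in shNRF2 (adjusted p = 0.043), a call close to the threshold. That call was lost in 10 of 21 other settings: in the fit to the 6 compared libraries (adjusted p = 0.233) and without any 1 of 9 libraries. These were H2O2-exposed shNRF2 (0.216), shControl (0.18), shMLL1 (0.0696) or shUTX (0.0592), CeO2-exposed shNRF2 (0.0993), shControl (0.0659), shMLL1 (0.0571) or shUTX (0.0502), and untreated shMLL1 (0.0662). Between knockdowns, DNAH5 was higher in shNRF2 than in shMLL1 (0.91 ± 0.15, adjusted p = 0.0012) and than in shUTX (0.53 ± 0.15, adjusted p = 0.02). The second of these was lost without any of the 3 shUTX libraries (untreated 0.0747, H2O2 0.0744, CeO2 0.0501) and without untreated (0.0991) or CeO2-exposed shNRF2 (0.0949). The 0.38 ± 0.16 by which shUTX exceeded shMLL1 missed the threshold (adjusted p = 0.122). It passed without untreated shControl (adjusted p = 0.0389) and in the fit to the compared libraries (0.0471).

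SPEF2 had no read in shMLL1: 0 counts in all 3 libraries, of 19272981 counts in total. It had 19, 37 and 19 counts in shControl (untreated, H2O2, CeO2), 13, 12 and 11 in shUTX, and 31, 19 and 27 in shNRF2. No library of another derivative was at 0. Taking 3 counts over the shMLL1 group as the most that a count of 0 allows (0.154 CPM), SPEF2 was at least 23-fold lower in shMLL1 than in shControl. Its level was likewise at least 13.5-fold below shUTX and at least 23.8-fold below shNRF2. The tests gave adjusted p = 5.76e-05, 0.000235 and 5.11e-05 for these comparisons (edgeR). Against shControl, SPEF2 differed by −0.73 ± 0.34 in shUTX (adjusted p = 0.132) and by 0.08 ± 0.30 in shNRF2 (adjusted p = 0.92), at a level of 1.73 to 4.93 CPM in those libraries. Between shNRF2 and shUTX it differed by 0.81 ± 0.34 (adjusted p = 0.104), past the threshold in the fit to the compared libraries (0.80, adjusted p = 0.0438). Its own exons overlap an antisense RNA by 78 bases, listed at 0.

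IFT74 was lower in a single knockdown. Its levels were 109.5, 95.4 and 72.5 CPM in shControl (untreated, H2O2, CeO2), 97.1, 74.9 and 72.3 CPM in shMLL1, 52.4, 41.9 and 47.6 CPM in shUTX, and 90.8, 80.7 and 87.6 CPM in shNRF2. All 3 shUTX libraries lay below the 9 others, and those 9 overlapped. IFT74 fell by 0.96 ± 0.12 (log2), 1.94-fold, in shUTX against shControl (edgeR, adjusted p = 4.1e-05). Against shMLL1 it was lower in shUTX by −0.78 ± 0.12 (adjusted p = 0.00032), and shNRF2 exceeded shUTX by 0.87 ± 0.12 (adjusted p = 0.000101). Its difference from shControl was −0.18 ± 0.11 in shMLL1 (adjusted p = 0.339) and −0.09 ± 0.11 in shNRF2 (adjusted p = 0.72). The exons of IFT74 share 272 bases with PLAA on the opposite strand, an ubiquitin-pathway gene at 306 CPM. PLAA went the other way in shUTX, 0.33 ± 0.07 above shControl (adjusted p = 0.00407).

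CPLANE1 fell in 1 knockdown. Its levels were 35.4, 66.9 and 56.9 CPM in shControl (untreated, H2O2, CeO2), 29.4, 45.6 and 42.5 CPM in shMLL1, 33.6, 48.4 and 32.9 CPM in shUTX, and 51.9, 62.6 and 51.1 CPM in shNRF2. The shNRF2 libraries lay above all those of shMLL1 and shUTX, the shControl libraries overlapped with each knockdown, and the untreated library was the lowest of its derivative in shControl and shMLL1. CPLANE1 fell by 0.46 ± 0.14 (log2) in shUTX (edgeR, adjusted p = 0.027). This call was lost without H2O2-exposed (adjusted p = 0.108) or CeO2-exposed (0.103) shControl, without H2O2-exposed (0.0522) or CeO2-exposed (0.141) shUTX, and in the fit to the compared libraries (0.106). The −0.43 ± 0.14 in shMLL1 missed the threshold (adjusted p = 0.0626) and passed it without untreated shControl (0.00113) or untreated shNRF2 (0.0414), with no filter (0.0216), with a filter at 5 CPM (0.049) and in the fit to the compared libraries (0.014). In shNRF2 the difference was 0.09 ± 0.14 (adjusted p = 0.773). CPLANE1 was higher in shNRF2 than in shMLL1 (0.51 ± 0.14, adjusted p = 0.0277) and than in shUTX (0.55 ± 0.14, adjusted p = 0.0116). The first was lost without untreated (adjusted p = 0.161) or H2O2-exposed (0.127) shMLL1 or untreated shNRF2 (0.159), the second without untreated shNRF2 (0.0714) or CeO2-exposed shUTX (0.0865). The difference between shUTX and shMLL1 was −0.03 ± 0.14 (adjusted p = 0.911).

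**Figure D2:**
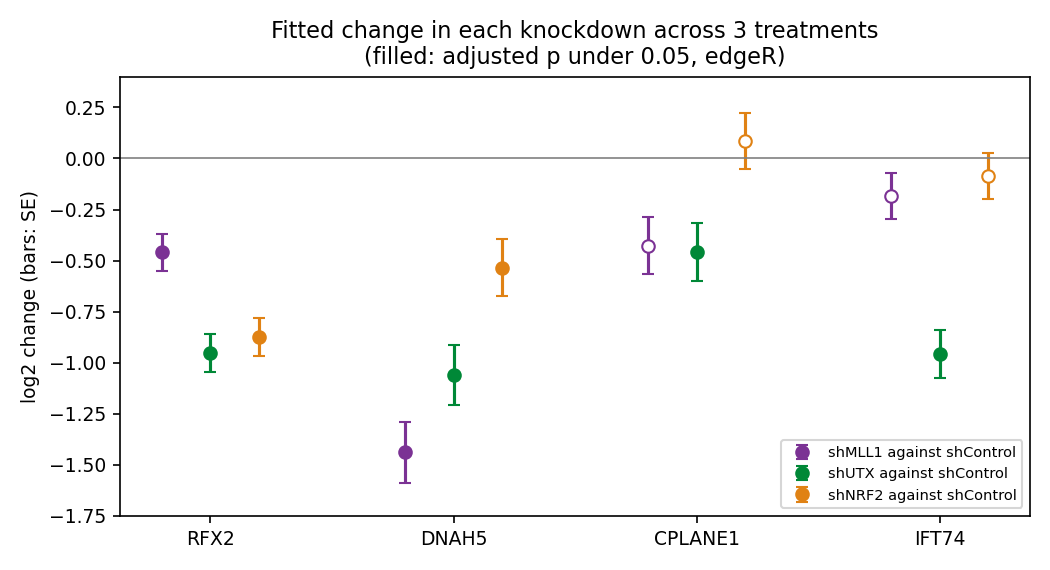
Fitted log2 change against shControl (y axis, bars are SE) of 4 members (x axis) in shMLL1, shUTX and shNRF2, across the 3 treatments; filled points have an adjusted p under 0.05. RFX2 and DNAH5 are filled in all 3 knockdowns and IFT74 in shUTX alone (−0.96); SPEF2 is left out because a fold against 0 counts is a bound.

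Counted over the 5 members tested, 3 fell in shMLL1 (RFX2, DNAH5, SPEF2), 4 in shUTX (all but SPEF2) and 2 in shNRF2 (RFX2, DNAH5), and none rose. Of the 10800 entries tested, 12.2% passed in shMLL1 (6.84% lower), 26.3% in shUTX (13.7% lower) and 5.33% in shNRF2 (2.56% lower). The median log2 change of the 5 members was −0.46, −0.95 and −0.09 in that order, and that of all entries 0.01, 5.5e-05 and 0.01. The members were chosen inside the stretches, so the 498 entries tested there and in the mitochondrial genome are a closer background. Their medians were −0.10, −0.07 and −0.08. In each knockdown a larger share of them than of all entries was called lower. In shNRF2 the median of the members was close to that of this background. Among knockdowns, shUTX against shMLL1 gave 1 member higher (SPEF2) and 2 lower (RFX2, IFT74), where 18.0% of entries passed. In shNRF2 against shMLL1, 3 were higher (DNAH5, CPLANE1, SPEF2) and 1 lower (RFX2), where 11.3% passed. These 3 higher members lie in the chromosome 5 stretch, where 57 of 92 other coding genes were higher in this comparison (median log2 0.44). CPLANE1 was 0.07 and DNAH5 0.46 above that median. In shUTX against shMLL1, 63 of the 92 were higher (median 0.62). In shNRF2 against shUTX, 3 were higher (DNAH5, CPLANE1, IFT74), where 23.4% passed. In bulk RNA, fewer cells expressing a gene and less RNA per cell cannot be told apart.

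The 3 members on the short arm of chromosome 5, DNAH5, SPEF2 and CPLANE1, sat in a stretch that was lower as a whole in shMLL1. Of its 92 other coding genes tested, 59 fell (64.1%) and 8 rose, with a median of −0.46 and quartiles of −0.70 and −0.19 on the log2 scale. The other 4 stretches had medians of −0.10 to 0.07 in shMLL1, with 0% to 12.1% of genes lower. CPLANE1 was 0.03 above its stretch's median, with 52 of the 92 genes at or below it, and DNAH5 was 0.98 below that median, with 8 of the 92 at or below it. Of the 10 nearest coding genes tested (5 on each side), 8 were lower in shMLL1 around DNAH5, 9 around CPLANE1 and 9 around SPEF2, and none was higher. DAP, the nearest of these to DNAH5 at lower coordinates, lies 3097186 bases away by midpoint. It differed by −1.40 ± 0.09 (edgeR, adjusted p = 1.73e-07), about as much as DNAH5 itself. TRIO, 520478 bases away on the other side, differed by −0.85 ± 0.12 (adjusted p = 0.000268). Beside CPLANE1, NIPBL differed by −0.65 ± 0.10 (adjusted p = 0.000679) and NUP155 by −0.28 ± 0.08 (adjusted p = 0.0369). Beside SPEF2, IL7R differed by −0.29 ± 0.09 (adjusted p = 0.0468), and PRLR, at a mean of 1.5 CPM, by −5.96 ± 1.18 (adjusted p = 0.00506). The part of the stretch in the values of the 3 members in shMLL1 was not tested.

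**Figure D3:**
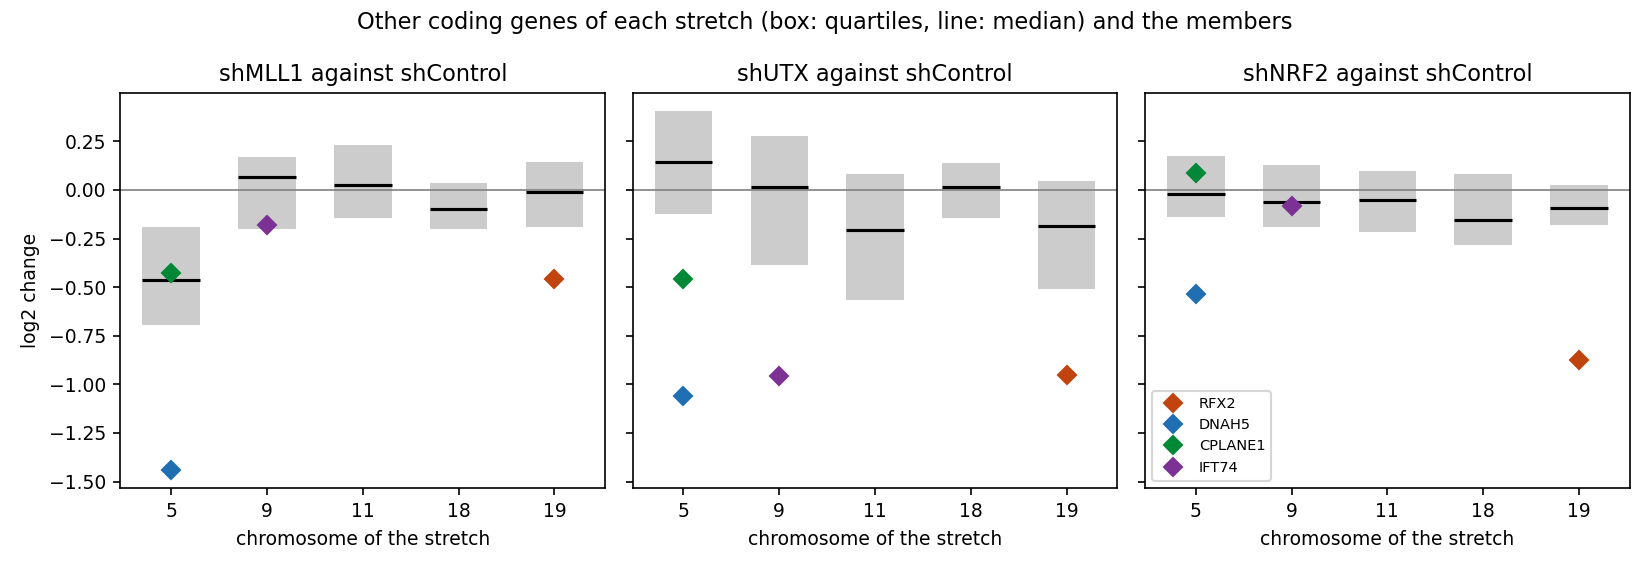
Log2 change against shControl (y axis) of the other coding genes of each of the 5 stretches (x axis, by chromosome; grey box from quartile to quartile, line at the median) and of 4 members (diamonds), for each knockdown. The chromosome 5 box lies wholly below 0 in shMLL1 (median −0.46), where CPLANE1 sits at the median, and straddles 0 in shUTX and shNRF2.

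In shUTX and shNRF2 the median of the chromosome 5 stretch was 0.14 and −0.02, with 14 and 5 of its 92 genes lower and 28 and 6 higher. DNAH5 lay 1.21 below the stretch's median in shUTX and 0.52 below it in shNRF2, and CPLANE1 0.60 below it in shUTX. RFX2, on chromosome 19, lay 0.45, 0.77 and 0.78 below its stretch's median in shMLL1, shUTX and shNRF2, with 15, 19 and 2 of 130 other coding genes at or below it. Its neighbours RANBP3 (0.20 ± 0.08, 0.08 ± 0.08 and −0.01 ± 0.08) and MLLT1 (0.18 ± 0.07, 0.00 ± 0.07 and −0.04 ± 0.07) passed no test in these 3 comparisons. Of the 10 nearest coding genes tested around RFX2, 3 were lower and 1 higher in shUTX, with a median of −0.29, and in its stretch 42 of 130 genes were lower in shUTX (32.3%). IFT74, on chromosome 9, lay 0.98 below its stretch's median in shUTX, with 9 of 83 genes at or below it. In that stretch 24 of 83 genes were lower in shUTX (28.9%), and of the 10 nearest to IFT74 3 were lower and 2 higher. These differences from a median are descriptions with no test.

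Libraries also differed by transcript length. Among 329 coding genes of the stretches, each set against its own mean over the libraries, the 110 longest (over 6139 bases of exon) were lower in the median than the 110 shortest (up to 3703) by 0.29 (log2) in untreated shControl and by 0.22 in untreated shMLL1, and higher by 0.21 in CeO2-exposed shControl, and the 9 other libraries lay between −0.01 and 0.13. DNAH5 (16475 bases), SPEF2 (16140), CPLANE1 (15146) and RFX2 (9094) exceed the upper of these lengths, and IFT74 (4073) does not. With that trend removed from each library, RFX2 in shMLL1 lost its call, as given above, and CPLANE1 in shMLL1 became 0.08 (adjusted p = 0.731). DNAH5 against shControl stayed past the threshold in all 3 knockdowns, at −0.89 (adjusted p = 0.000924), −0.94 (0.000263) and −0.52 (0.0433), while shNRF2 against shMLL1 became 0.38 (0.127) and against shUTX 0.42 (0.0503). CPLANE1 became 0.03 (adjusted p = 0.918) for shNRF2 against shMLL1 and −0.42 (0.0244) for shUTX against shMLL1. This trend is drawn partly from the chromosome 5 stretch, so it was also removed after setting each stretch's median to 0. Then RFX2 in shMLL1 was −0.39 (adjusted p = 0.0262), DNAH5 −1.17 (9.92e-05) and CPLANE1 −0.18 (0.342). CPLANE1 in shUTX became −0.27 (adjusted p = 0.09), its shNRF2 against shMLL1 0.24 (0.197), and DNAH5 in shNRF2 against shUTX 0.29 (0.173). Both corrections were added after seeing the data, the second after the results of the first.

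Across the 4 derivatives no member passed the test for either exposure in edgeR. For H2O2, 0.0% of entries passed in edgeR, with 2102 at an unadjusted p under 0.05, 152 passing in DESeq2 and 0 in limma-voom. For CeO2, 0.0185% passed (2 entries), with 1889 at an unadjusted p under 0.05, 44 in DESeq2 and 0 in limma-voom. CPLANE1 came nearest: its difference with H2O2 was 0.58 ± 0.12 (log2, adjusted p = 0.114), past the threshold in DESeq2 (0.57, adjusted p = 0.0132) and in edgeR with no filter (0.58, adjusted p = 0.00024). Over all other settings its adjusted p ranged from 0.0527 to 0.334, and its value was above 0 in each. In counts, CPLANE1 went from 229 untreated to 502 with H2O2 in shControl, from 204 to 267 in shMLL1, from 175 to 276 in shUTX and from 367 to 379 in shNRF2. Scaled to library size the ratios were 1.89 (exact 95% interval 1.61 to 2.22), 1.55 (1.29 to 1.87), 1.44 (1.19 to 1.75) and 1.21 (1.04 to 1.40), where the intervals cover counting error only. All 4 intervals were above 1, and the ratio was highest in shControl. These ratios are not corrected for transcript length. At the length of CPLANE1 the length trend (log2) was −0.02 in untreated and 0.21 in H2O2-exposed shControl, or −0.18 and 0.17 within stretches. Of the 92 other coding genes of its stretch, 89 had a lower or equal fitted difference with H2O2 and 88 with CeO2. With CeO2 the CPLANE1 ratios were 1.61 (1.36 to 1.90) in shControl and 1.45 (1.20 to 1.74) in shMLL1. They were 0.98 (0.798 to 1.21) in shUTX and 0.985 (0.853 to 1.14) in shNRF2. Over the derivatives the CeO2 difference was 0.29 ± 0.12 (adjusted p = 0.256), and with the length trend removed 0.17, or 0.09 within stretches.

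IFT74 was below its untreated level in all 8 exposed libraries, with ratios of 0.662 (CeO2, shControl) to 0.965 (CeO2, shNRF2) and an interval below 1 in 5 of them. Its differences were −0.26 ± 0.10 for H2O2 (adjusted p = 0.192) and −0.30 ± 0.10 for CeO2 (adjusted p = 0.202), with 6 and 2 of the 83 other coding genes of its stretch at or below it. In shControl the length trend at IFT74 (log2) was 0.23 untreated, −0.02 with H2O2 and −0.07 with CeO2. Within stretches that trend was −0.007, 0.012 and −0.010. RFX2 was below its untreated level in 7 of 8 exposed libraries, at ratios of 0.82 to 1.07, with differences of −0.17 ± 0.08 (adjusted p = 0.267) and −0.08 ± 0.08 (0.604). DNAH5 ratios ranged from 0.697 (H2O2, shNRF2) to 1.23 (CeO2, shControl), with differences of −0.10 ± 0.13 (adjusted p = 0.706) and 0.09 ± 0.13 (0.732). SPEF2 gave 0.06 ± 0.32 and −0.33 ± 0.32 (adjusted p = 0.934 and 0.609), and each of its 6 ratios had an interval that includes 1.

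**Figure D4:**
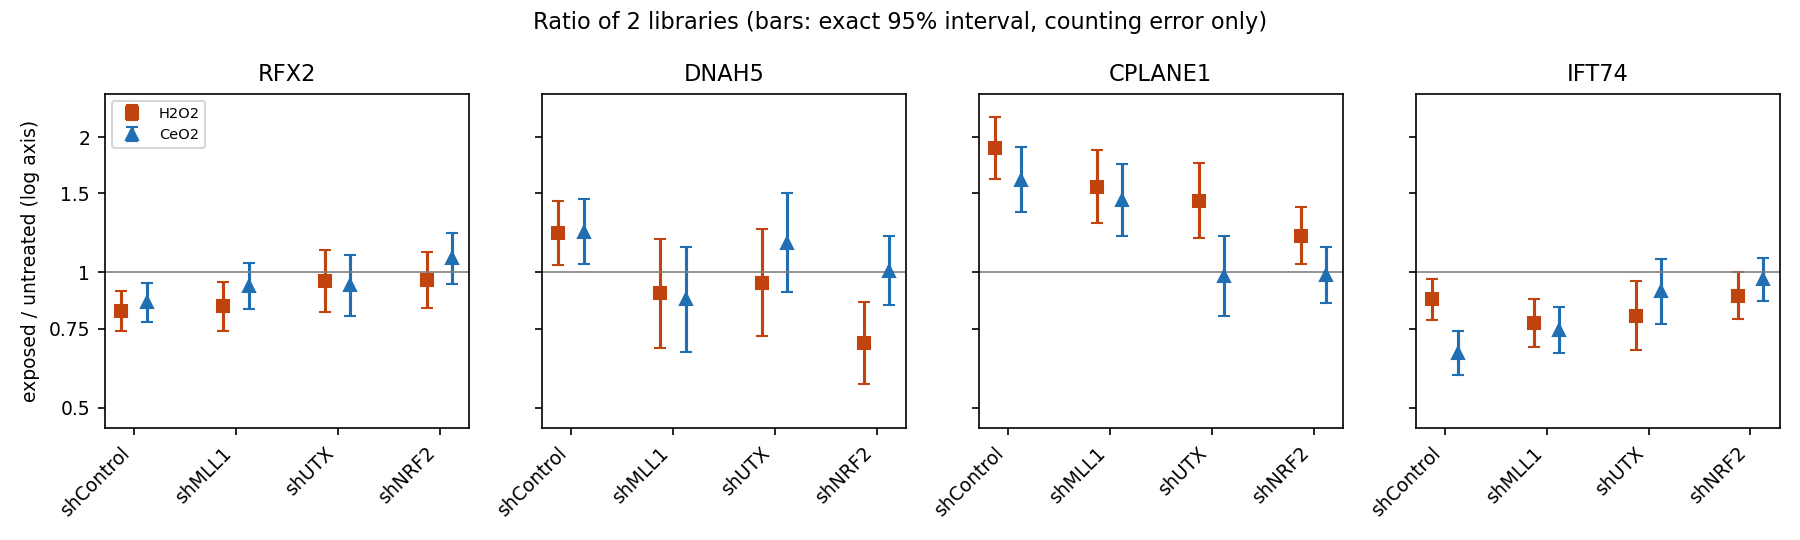
Ratio of an exposed to the untreated library of the same derivative (y axis, log scale; bars are exact 95% intervals for counting error) for 4 members, with H2O2 as squares and CeO2 as triangles. CPLANE1 with H2O2 lies above 1 in all 4 derivatives (1.21 to 1.89), and IFT74 below 1 throughout (0.662 to 0.965).

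Whether a member responded to exposure differently in a knockdown than in shControl was asked in an exploratory model of 3 residual degrees of freedom. No member passed for shMLL1 or shUTX, where 0.648% and 14.4% of entries did. CPLANE1 passed for shNRF2, where 16.6% of entries did: its response was lower than in shControl by −0.68 ± 0.21 (adjusted p = 0.0299). The same term for CPLANE1 was −0.22 ± 0.22 in shMLL1 (adjusted p = 0.688) and −0.54 ± 0.22 in shUTX (adjusted p = 0.115). The term sets both agents together against 1 untreated library in either derivative, which could not be left out, and its spread comes from the exposed libraries. The call was lost in DESeq2 (−0.66, adjusted p = 0.171), without CeO2-exposed (adjusted p = 0.0656) or H2O2-exposed (0.0596) shNRF2, and with the length trend removed (−0.40, 0.213; within stretches −0.31, 0.352). For DNAH5 the terms were −0.48 ± 0.27, −0.22 ± 0.27 and −0.53 ± 0.24 in shMLL1, shUTX and shNRF2 (adjusted p = 0.405, 0.656 and 0.152). RFX2 gave 0.28 ± 0.16 in shNRF2 (adjusted p = 0.271) and passed only with the length trend removed within stretches (0.50, adjusted p = 0.0402).

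Other genes of the cilium were taken from a list of 16. Of these, 15 were found in the stretches, SPMIP6 was not found by name, and 10 passed the filter on low counts. None of the 10 rose against shControl. In shMLL1, 2 of 10 fell. Of all entries 6.84% did, and of the 498 entries tested in the stretches and the mitochondrial genome 98 did. The 2 were CEP72, a protein of centriolar satellites, by 0.56 ± 0.11 (adjusted p = 0.00367), and FSD1, a microtubule-binding protein of the centrosome, by 1.21 ± 0.19 (adjusted p = 0.000569). CEP72 is in the chromosome 5 stretch. In shUTX, 2 of 10 fell. Of all entries 13.7% did, and of the 498 a larger share did. The 2 were FSD1, by 1.19 ± 0.19 (edgeR, adjusted p = 0.000407), and DCTN3, a dynactin subunit that serves cytoplasmic dynein, by 0.44 ± 0.13 (adjusted p = 0.0182). For DCTN3, shControl and shUTX stood at 167 and 88.05 CPM untreated, 108 and 86.5 with H2O2, and 112 and 107 with CeO2. For single genes, the alternative settings were followed for the members only. In shNRF2 none of the 10 passed in edgeR. FSD1 stood at 24.0, 22.8 and 14.3 CPM in shControl (untreated, H2O2, CeO2), 9.07, 7.85 and 8.98 CPM in shMLL1, 7.67, 9.83 and 8.98 CPM in shUTX and 16.8, 20.8 and 17.4 CPM in shNRF2, so that shMLL1 and shUTX lay below the others without overlap. The median change of the 10 was −0.26 in shMLL1, −0.30 in shUTX and −0.12 in shNRF2.

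Of the tested genes listed under motile axoneme and flagellum, TEKTIP1, a protein inside the doublet microtubules, was at 15.3 CPM. It differed from shControl by −0.01 ± 0.17, −0.13 ± 0.17 and 0.12 ± 0.17 in shMLL1, shUTX and shNRF2. CAPS (4.23 CPM) gave −0.25 ± 0.35, −0.63 ± 0.37 and −0.04 ± 0.34, and SPAG8 (1.24 CPM) −1.32 ± 0.47, −1.12 ± 0.47 and −0.19 ± 0.40, with no adjusted p under 0.0833 among these. TMEM80 of the transition zone (67.9 CPM), the centriolar kinesin KIF24 (89.1 CPM), TOPORS (130 CPM) and GNAL (1.60 CPM) passed no test against shControl. Between knockdowns CEP72 was higher in shUTX than in shMLL1 (0.76), FSD1 higher in shNRF2 than in shMLL1 (1.07) and than in shUTX (1.05), and CEP72 (−0.52) and TOPORS (−0.26) lower in shNRF2 than in shUTX. With exposure none of the 10 passed in edgeR. In the changed-response model DCTN3 was higher and KIF24 lower in shUTX (0.73 and −0.63, edgeR, adjusted p = 0.00329 and 0.013). The same held in shNRF2 (0.58 and −0.51, adjusted p = 0.0101 and 0.0302). Of all entries, 14.4% and 16.6% passed there. Of the 498 in the stretches and the mitochondrial genome, 94 were higher and 14 lower in shUTX, and 107 and 20 in shNRF2. In shControl DCTN3 stood at 167 CPM untreated, 108 with H2O2 and 112 with CeO2, and KIF24 at 72.55, 92.3 and 104 CPM. In shUTX DCTN3 stood at 88.05, 86.5 and 107 CPM. Each term rests on 1 untreated library in either derivative. The shUTX and shNRF2 terms share the untreated shControl library, so they are not separate observations. These values are not corrected for transcript length. Under the filter were CFAP90 (0 counts), CAPSL (2), CATSPERD (4), TTC23L (24) and ROPN1L (51). The 6 markers of multiciliated cells in the stretches that are not among the members summed to 21.5 to 24.2 CPM in shControl, 19.5 to 21.5 in shMLL1, 15.8 to 21.7 in shUTX and 19.8 to 26.6 in shNRF2. CFAP90 was at 0 in every library. The part of such cells in these results was not tested. The other RFX factors listed (RFX1, RFX3, RFX5, RFX7) and FOXJ1, MCIDAS, MYB and TP73 lie outside the stretches and were not read.

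**Figure D5:**
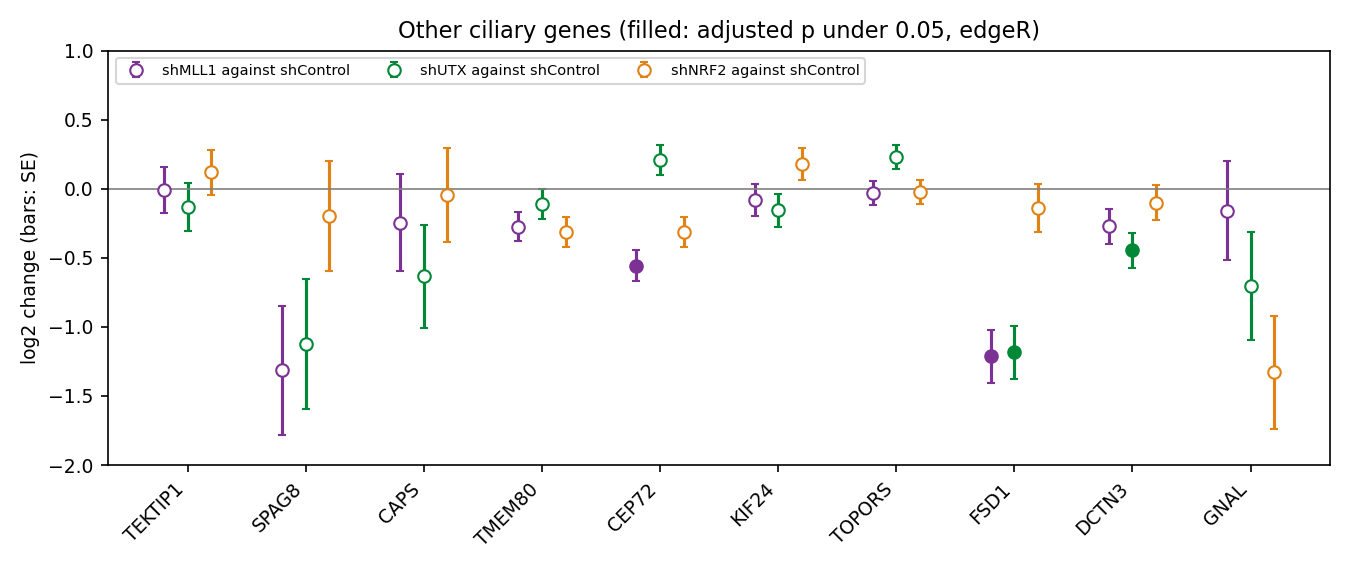
Fitted log2 change against shControl (y axis, bars are SE) of the 10 other ciliary genes past the filter (x axis) in the 3 knockdowns; filled points have an adjusted p under 0.05. FSD1 is filled in shMLL1 (−1.21) and shUTX (−1.19), CEP72 in shMLL1 and DCTN3 in shUTX.

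The genes most like each member were those with the smallest root-mean-square difference of log2(CPM + 1), centred over the 12 libraries, among 394 entries of the stretches with at least 5 CPM. For RFX2 they were GATD1-DT (0.167), TUBB6 (0.178) and TPM2 (0.186), against a median distance of 0.427. For DNAH5 they were SNHG18 (0.235) and ANKH (0.239), both on chromosome 5, and APC2 (0.259), with a median of 0.581. For CPLANE1 they were PDZD2 (0.21) and the pseudogene MSNP1 (0.221), both on chromosome 5, and KDM4B (0.249), with a median of 0.468. For IFT74 they were ARHGEF39 (0.143), BTBD2 (0.168) and CHMP5 (0.172), with a median of 0.448. Between members the distance ran from 0.348 (RFX2 and IFT74) to 0.525 (DNAH5 and IFT74). All these points share their libraries and depth.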

How the data were processed

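Total RNA libraries were made with a TruSeq kit, per the labels' protocols. The submitters' processing notes list the trimmer Trimmomatic (0.39), the aligner HISAT2 (2.2.1), SAMtools (1.12), the counter HTSeq (0.11.1) and the build GRCh38. Settings, annotation and use of strand were not given in the sources used. What the authors deposited are raw read counts per Ensembl gene (61498 entries), per the file headers. Untreated counts came from the H2O2 table, from which the CeO2 table differs in 1 value.

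Coordinates and exon lengths came from GENCODE 29. Stretches where names match were found by a hidden Markov model over 799 housekeeping genes, each coded by whether its mean reached 30 CPM. Runs with at least 3 such genes and a median of at least 150 CPM were used. Counts were scaled by TMM, and the 10800 entries with at least 1 CPM in 3 libraries were tested with edgeR 4.0.16 (quasi-likelihood, two-sided; R 4.3.3), with p-values adjusted by Benjamini-Hochberg over all of them (threshold 0.05). The additive model of derivative and treatment had 6 residual degrees of freedom, and the changed-response model 3. Ratios of libraries have exact conditional binomial intervals (95%). The code was tested on simulated counts.

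Alternatives were RLE scaling, other filters, DESeq2 1.42.0, limma-voom (limma 3.58.1), the compared libraries only, the CeO2 table's untreated counts, and each library left out; removal of length trends, and leaving out exposed libraries for the changed response, were added after seeing the data. Members, lists, stretches and the neighbour and likeness rules were chosen with earlier results of these data known. Named are all members, every other listed ciliary gene found by name in the stretches, the nearest tested coding neighbours, and the 3 most alike entries.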

Additional observations from a re-analysis of the deposited data

Results flagged for a closer look

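DNAH5 was higher than untreated with both agents in shControl (ratios 1.22 and 1.23) and lower with both in shMLL1 (0.898 and 0.872). The test of that difference gave −0.48 (log2, edgeR, adjusted p = 0.405), so it was not past the threshold, and the intervals of both shMLL1 ratios include 1. For CPLANE1 the test itself passed: its response in shNRF2 was lower than in shControl by −0.68 (adjusted p = 0.0299). That call was lost in DESeq2 (adjusted p = 0.171), without either exposed shNRF2 library (0.0656 and 0.0596) and with the length trend removed (0.213, and 0.352 within stretches). The untreated CPLANE1 level was 35.4 CPM in shControl and 51.9 CPM in shNRF2, against 66.9 and 62.6 CPM with H2O2.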

How the results depend on the processing

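No paired analysis was possible because each combination has 1 library and the labels carry no replicate numbers; the additive model itself compares derivatives within treatments and treatments within derivatives. Of the 20 member results past the threshold, 11 were past it in every setting run and none reversed; the other 9 are named above with each setting that ended them. Alternatives were also summarised for 26 of the member results not past it, of which 11 reversed in some setting. Removing the length trend reversed DNAH5 for shUTX against shMLL1 (−0.045), for CeO2 (−0.047; within stretches −0.13) and for the changed response of shUTX (0.058 and 0.15), SPEF2 for H2O2 (−0.039 and −0.099), CPLANE1 in shMLL1 (0.078) and, within stretches, RFX2 for shNRF2 against shUTX (−0.041). Leaving out each library in turn took DNAH5 from −0.23 to 0.025 for H2O2 and from −0.034 to 0.18 for CeO2, CPLANE1 from −0.077 to 0.18 in shNRF2 and from −0.10 to 0.095 for shUTX against shMLL1, IFT74 from −0.22 to 0.0075 in shNRF2, and SPEF2 from −0.17 to 0.43 in shNRF2 and from −0.34 to 0.34 for H2O2.

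Counts of entries called moved more. In the fit to the compared libraries they were 1427 (shUTX), 154 (shNRF2), 2955 (shUTX against shMLL1), 1991 (shNRF2 against shMLL1), 4351 (shNRF2 against shUTX), 3 (H2O2) and 0 (CeO2). With no filter they were 907 (shNRF2), 651 (H2O2), 543 (CeO2) and 218 (changed response, shMLL1), and in DESeq2 152 (H2O2), 44 (CeO2), 676 and 686 (changed response, shUTX and shNRF2). For CeO2 the count was also 0 with a filter at 5 CPM, with the length trend removed and in limma-voom. Leaving out each library in turn gave 667 to 1941 (shMLL1), 1931 to 3088 (shUTX), 257 to 830 (shNRF2), 1169 to 2989 (shUTX against shMLL1), 598 to 2251 (shNRF2 against shMLL1), 1652 to 3604 (shNRF2 against shUTX), 0 to 43 (H2O2) and 0 to 29 (CeO2), and for the changed response 4 to 676 (shMLL1), 822 to 2102 (shUTX) and 1317 to 2327 (shNRF2). A change of over 1.5 times came without any shMLL1 library for shMLL1, without H2O2-exposed shControl or any shNRF2 library for shNRF2, without CeO2-exposed shUTX for shNRF2 against shUTX and for the changed response of shUTX, and without untreated shControl, any shMLL1 library or H2O2-exposed shUTX for shUTX against shMLL1. For shNRF2 against shMLL1 it came without untreated shControl or any library of either, for the changed response of shMLL1 without an exposed library of shControl, shMLL1 or shUTX, for H2O2 without any shControl library, and for CeO2 without each library. The cause of these moves was not tested. Depth limits SPEF2 (188 counts over all libraries) and DNAI1 (4) most.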
